A study of Rattus norvegicus with 10 samples.

Results

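The miR-379/410 cluster is a run of microRNA hairpins inside the imprinted Dlk1-Dio3 domain, and miR-495 lies within it. Its members were taken as the rat microRNA probes of the counting panel whose miR number is one of 31 numbers of the cluster, which gave 36 of the 420 microRNA probes and 30 of the 31 numbers (there was no probe for miR-679). Of these 36 probes, 29 were above background in at least 2 samples, out of 253 detected microRNAs in all.

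In mammals the microRNAs of this cluster are made from the maternally inherited chromosome, from a long transcript downstream of the noncoding RNA Meg3, while Dlk1, Rtl1 and Dio3 are expressed from the paternal copy. Neurons are a main site of their expression, and in rat hippocampal neurons activity and the transcription factor Mef2 raise them. Several members act at synapses there: miR-134 limits the size of dendritic spines through Limk1, miR-134 and miR-329 are needed for activity-dependent dendrite growth, and miR-485 holds down the synaptic vesicle protein SV2A.

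The samples were tissue punches of the dorsal vagal complex (DVC), the hindbrain region that holds the vagal motor neurons, cut from 200 um sections of 10 rats (male, Sprague-Dawley), with a single sample for each animal. The 4 groups were age-matched controls (AMC, n = 3), remote ischemic preconditioning alone (RIPC, n = 2), infarction by tying off the left anterior descending artery of the heart (LAD, n = 3), and both, with the preconditioning 2 h ahead of the ligation (RIPC+LAD, n = 2). LAD and RIPC+LAD animals were sampled 24 h after ligation, no sham-operated animals were part of these samples, and the labels give no numeric age. Samples within a group are numbered here in the order of their records. Both RIPC+LAD animals share 1 prefix of the animal number, as do AMC 2 with AMC 3 and LAD 2 with LAD 3. The labels do not say what the prefix stands for, no prefix spans groups, and for RIPC+LAD prefix and group cannot be told apart. A punch is bulk tissue, so fewer cells of a type and less microRNA per cell cannot be told apart.

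All 36 members matched a hairpin gene in the RefSeq annotation of the rat assembly GRCr8. These 32 hairpins lie on chromosome 6, on the plus strand, at chr6:134543445-134579838, a stretch of 36.4 kb between Dlk1 and Dio3 and beyond Meg3 and Rtl1. The mature sequences of the members on which the results below turn are given from the RefSeq table, with the seed, bases 2 to 8, in capitals. The probes miR-495 and miR-300-3p matched a mature microRNA by name. The probes miR-758, miR-487b, miR-539, miR-382, miR-411 and miR-381 name no arm, so both arms are given for the first 5 of them, and for miR-381 the arm that resembles miR-300-3p.
miR-495: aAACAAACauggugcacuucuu
miR-758-5p: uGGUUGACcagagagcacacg
miR-758-3p: uUUGUGACcugguccacuaacc
miR-487b-5p: aGUGGUUAucccuguccucuucg
miR-487b-3p: aAUCGUACagggucauccacuu
miR-539-5p: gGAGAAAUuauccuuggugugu
miR-539-3p: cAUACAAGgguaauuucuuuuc
miR-382-5p: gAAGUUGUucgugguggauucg
miR-382-3p: aAUCAUUCacggacaacacuu
miR-411-5p: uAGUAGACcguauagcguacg
miR-411-3p: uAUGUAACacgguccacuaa
miR-300-3p: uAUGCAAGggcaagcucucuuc
miR-381-3p: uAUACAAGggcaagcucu

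The 62 mature sequences of these hairpins carried 58 distinct seeds, and 3 seeds were shared. AUACAAG is shared by miR-381-3p and miR-539-3p, GGUUGUC by miR-410-5p, miR-494-5p and miR-496-5p, and UGGAUAU by miR-376b-5p and miR-376c-5p. MiR-495 shares its seed with no other mature sequence in the table. Near-identical members may share a probe's signal: miR-300-3p and miR-381-3p differ over 18 bases by G4A alone, counted from the 5′ end, and miR-376b-5p and miR-376c-5p over 21 bases by G19U. Cross-hybridization between such probes was not tested.

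Counts were compared as CPM, the share of a sample's microRNA counts per 1000000, after scaling with trimmed mean of M values (TMM) factors. A probe counted as above background in a sample when its count exceeded the mean plus 2 SD of the 8 negative control probes of that sample. Of the 36 members, 22 were above background in all 10 samples. MiR-299, miR-380, miR-412, miR-494, miR-544 and miR-666 were above it in none, with counts from 1 to 7; miR-494 is known from the mouse heart, where it protects against ischemic injury. MiR-409-3p was above it in 1 sample. Among the 29 detected members, 26 were above background in every group: miR-300-5p was above it in no RIPC sample, miR-668 in no AMC sample and miR-381 in 2 AMC samples only.

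Total microRNA counts ran from 28485 in LAD 3 to 102824 in AMC 3, and the 36 members together had 1170 to 4622 counts per sample. They made up 4.35% ± 0.528 of all microRNA counts in AMC (SD, n = 3), with 4.59%, 4.71% and 3.74% in the individual samples. The share was 4.44% and 5.18% in the RIPC samples, 3.59%, 3.74% and 4.11% in the LAD samples (3.81% ± 0.266, SD, n = 3), and 3.80% and 4.55% in the RIPC+LAD samples. Both RIPC samples were above all LAD samples, and every other pair of groups overlapped.

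**Figure D1:**
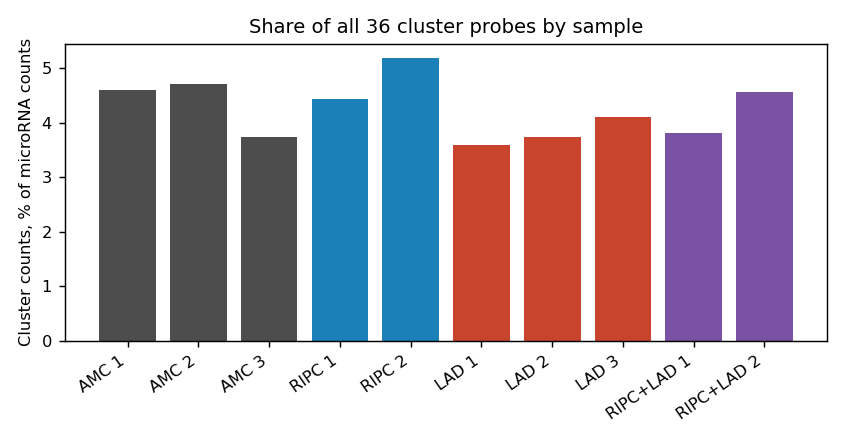
Share of the 36 cluster probes in all microRNA counts (y axis, percent) for each of the 10 samples (x axis), coloured by group. The bars lie between 3.59% and 5.18%, and every group overlaps with at least one other.

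The counts were concentrated in few members. The 8 most abundant held 74.1% of the cluster counts and miR-382 alone held 22.6%, although probes differ in capture efficiency, so this order is one of probes rather than of molecules. MiR-382 stood at 10722, 11059 and 7576 CPM in the AMC samples and at 10390 and 10912 CPM in the RIPC samples. It stood at 9477, 7061 and 8178 CPM in the LAD samples and at 9790 and 9598 CPM in the RIPC+LAD samples. It was thus the steadiest of the 29 detected members, the highest sample being 1.57 times the lowest, against a median of 2.37 times for the 22 members above background in all samples.

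MiR-369-3p ranged from 1711 CPM in LAD 2 to 5234 CPM in AMC 2 with a median of 3252 CPM. MiR-329 ranged from 2128 CPM in AMC 2 to 3894 CPM in RIPC+LAD 1 (median 3234 CPM), with 2957, 2128 and 3241 CPM in AMC and 2492, 3227 and 3761 CPM in LAD. MiR-376b-3p ranged from 1690 CPM in LAD 2 to 3549 CPM in RIPC+LAD 2 with a median of 2955 CPM. For each of these the AMC and LAD samples overlapped. The least abundant detected members were miR-381, miR-300-5p and miR-668, with medians of 72.2, 103 and 82.9 CPM.

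The question of the first comparison was what differs in the DVC after ligation alone. MiR-495, which in human brain has been tied to control of the neurotrophin BDNF, stood at 3693, 3534 and 3348 CPM in AMC and at 1661, 1646 and 2795 CPM in LAD. All 3 LAD samples were below all 3 AMC samples, which lay close together. The log2 fold change was -0.81 ± 0.32 (SE), with an unadjusted p of 0.0238 and an adjusted p of 0.804 in the edgeR quasi-likelihood test over 253 microRNAs. The study picked miR-495 on these same animals, which makes its direction no independent evidence.

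MiR-758, a repressor of the cholesterol exporter ABCA1 in human and mouse cells, had 15, 13 and 20 counts in AMC and 7, 6 and 1 counts in LAD. These correspond to 153, 132 and 215 CPM against 70.1, 130 and 34.5 CPM, and LAD 1 and LAD 3 were not above background. The groups did not overlap, but LAD 2 was just under AMC 2. The log2 fold change was -1.03 ± 0.45, with an adjusted p of 0.804 by the edgeR quasi-likelihood test.

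MiR-487b had 1095, 1293 and 1062 CPM in AMC against 1041, 715 and 483 CPM in LAD, again without overlap, and a log2 fold change of -0.57 ± 0.31. The lower LAD values were those of LAD 2 and LAD 3, the samples with the fewest total counts (42893 and 28485), where it had 33 and 14 counts against 104 in LAD 1. Over the 10 samples its Pearson's r with the total count was 0.85 and Spearman's rho 0.2 (permutation p = 0.00938 and 0.583, adjusted p = 0.138 and 0.903), and r was -0.30 without these 2 samples. The fourth of the members lower by smallest p was miR-134, at -0.54 ± 0.34. The 4 members higher in LAD with the smallest p were miR-668 (0.51 ± 0.56), miR-369-5p (0.28 ± 0.32), miR-411 (0.23 ± 0.27) and miR-541 (0.32 ± 0.37), each smaller than its SE. Of these 8, miR-541 was the one other member whose groups did not overlap, with 123, 122 and 118 CPM in AMC against 130, 195 and 138 CPM in LAD. These rest on 12, 12 and 11 counts in AMC and 13, 9 and 4 counts in LAD, and LAD 3 was not above background.

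No member passed an adjusted p of 0.05 in this comparison by the edgeR quasi-likelihood test (background 0.0% of 253 microRNAs). At an unadjusted p under 0.05 there were 2 members of 29, miR-495 and miR-758, against a background of 5.53%. DESeq2 gave 1 member beside 4 of all 253 microRNAs, and limma-voom 2 members beside 13 of all. The groups did not overlap for 4 members of 29, against 9.09% of all detected microRNAs. Of the 29 members 10 were higher and 19 lower, where 47.8% of all detected microRNAs were higher, and with scaling to the 100 most abundant microRNAs, which moved the median of all microRNAs by 0.14, 13 were higher and the median of the members relative to that shift was -0.20. The median log2 fold change was -0.20 for the members and -0.01 for all 253. The members' median was -0.08 without LAD 1, -0.09 without LAD 3 and -0.07 with the ligation control in the fit. Relative to the shift of all microRNAs in each fit it was -0.06, -0.14 and -0.11. With the ligation control no member had an unadjusted p under 0.05, against 10 of all 253 microRNAs.

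The next comparison asked what preconditioning before ligation changes. MiR-495 stood at 2854 and 4390 CPM in RIPC+LAD, above all 3 LAD samples (1661, 1646 and 2795 CPM), although the lower one exceeded LAD 3 by little. The log2 fold change of RIPC+LAD over LAD was 0.85 ± 0.35, with an unadjusted p of 0.0294 and an adjusted p of 0.240 by the edgeR quasi-likelihood test. Without RIPC+LAD 2 it was 0.46 ± 0.44, and in a fit with the ligation control of the assay it was 0.62 ± 0.67.

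MiR-758 had 12 and 18 counts in RIPC+LAD (160 and 207 CPM), against 7, 6 and 1 in LAD. Its log2 fold change was 1.18 ± 0.49, with an adjusted p of 0.240 by the edgeR quasi-likelihood test, and 0.32 ± 0.76 in the fit with that control. MiR-487b, at 1107 and 1509 CPM in RIPC+LAD, was at 0.76 ± 0.34 with an unadjusted p of 0.0398, or 0.46 without either RIPC+LAD 2 or LAD 3.

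MiR-539 stood at 4321 and 6787 CPM in RIPC+LAD against 2232, 2664 and 4831 CPM in LAD, and these groups overlapped. In AMC it stood at 4123, 4532 and 4110 CPM, and in RIPC at 5232 and 2663 CPM. Its log2 fold change of RIPC+LAD over LAD was 0.79 ± 0.37, with an unadjusted p of 0.0501 by the edgeR quasi-likelihood test. MiR-379, the first hairpin of the cluster, followed at 0.73 ± 0.38 and miR-154 at 0.82 ± 0.43.

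Members lower in RIPC+LAD than in LAD were fewer. MiR-411, from the second hairpin, stood at 2307 and 1855 CPM in RIPC+LAD and at 3513, 2643 and 3623 CPM in LAD. It was lower in both RIPC+LAD samples than in any other sample of the series, with a log2 fold change of -0.65 ± 0.30 and an unadjusted p of 0.0502 by the edgeR quasi-likelihood test. MiR-300-3p stood at 2094 and 1867 CPM in RIPC+LAD, below its LAD values of 2412, 3271 and 2139 CPM, at -0.40 ± 0.30. MiR-377 (-0.46 ± 0.50) and miR-543 (-0.22 ± 0.39) came next, each smaller than its error.

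No member passed an adjusted p of 0.05 here either by the edgeR quasi-likelihood test (background 0.0%). At an unadjusted p under 0.05 there were 3 members of 29, against a background of 17.4%. DESeq2 gave 1 member beside 32 of all 253 microRNAs, and limma-voom 6 members beside 46 of all. The groups did not overlap for 9 of 29 members (7 higher, 2 lower), against 37.9% of all detected microRNAs. Neither the 3 members by edgeR nor these 9 were above the background. The direction was less even: 23 of 29 members were higher, against 51.4% of all detected microRNAs, with a median log2 fold change of 0.35 for the members and 0.02 for all 253. Scaling to the 100 most abundant microRNAs moved the median of all microRNAs by -0.19 and left 17 members higher, and leaving out the TMM factor moved it by -0.13 and left 19. Relative to these shifts the median of the members was 0.35 and 0.34. With the ligation control in the fit 20 members were higher and their median was 0.16. No member had an unadjusted p under 0.05 in that fit, against 15 of all 253 microRNAs. That fit moved the median of all microRNAs by -0.11, and the members' median relative to this shift was 0.27. Without RIPC+LAD 2 the median of the members was 0.01, with 15 of 29 higher, and without LAD 3 it was 0.14. Leaving out these samples moved the median of all microRNAs by -0.14 and -0.09, which the count of 15 does not allow for. The members' median relative to these 2 shifts was 0.15 and 0.22.

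**Figure D2:**
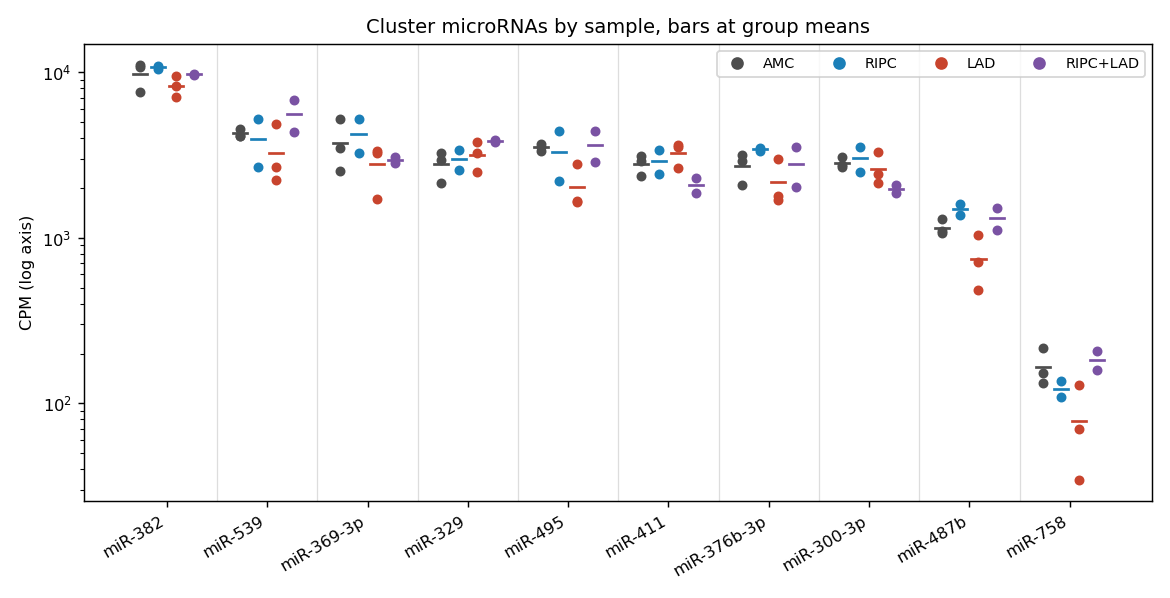
CPM (y axis, log scale) of the 10 members described by sample, 1 point per animal, coloured by group with a bar at the group mean. MiR-495, miR-487b and miR-758 have all LAD points below all AMC points, while miR-411 and miR-300-3p have both RIPC+LAD points below all LAD points.

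**Figure D3:**
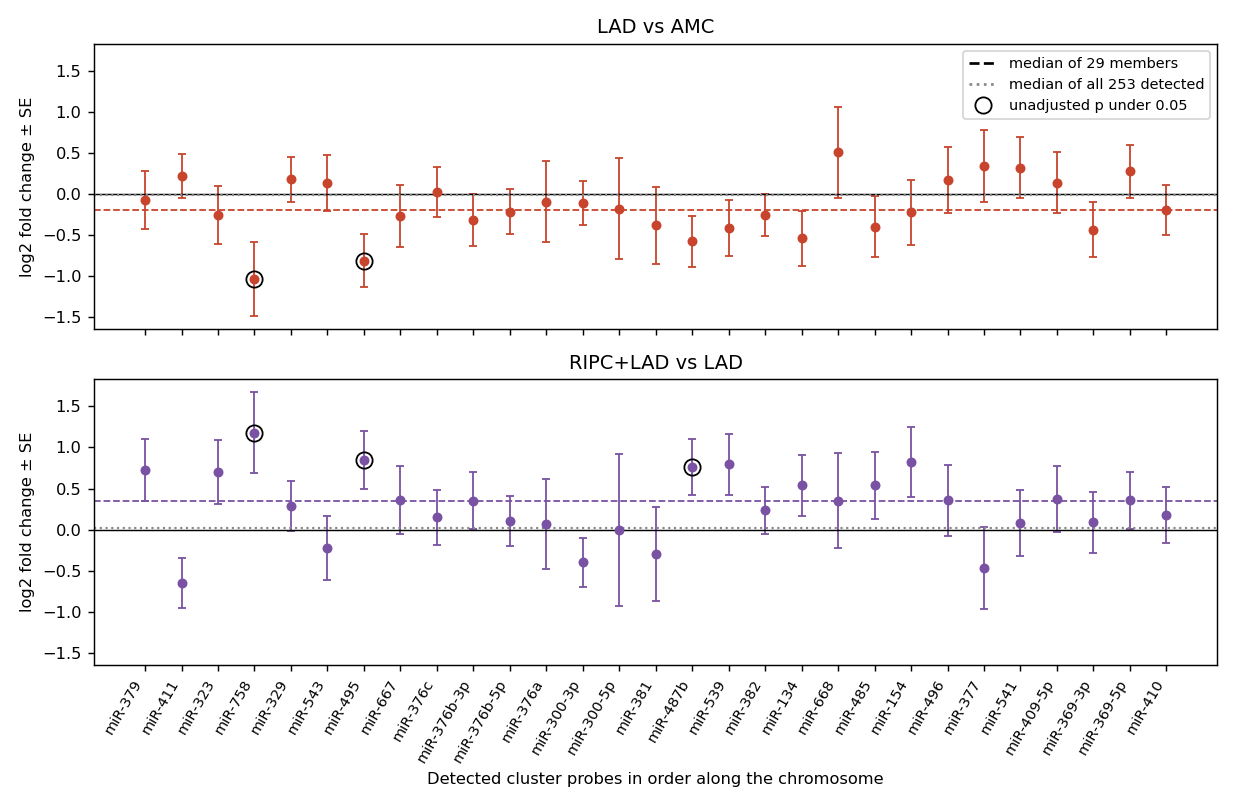
Log2 fold change (y axis) with its SE for the 29 detected members, ordered along the chromosome, for LAD over AMC (upper panel) and RIPC+LAD over LAD (lower panel), with the medians of the members (dashed) and of all 253 microRNAs (dotted). Circled points have an unadjusted p under 0.05, 2 in the upper and 3 in the lower panel, and none passed after adjustment.

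Technical measures moved with these groups. The ligation control, a synthetic RNA that reports the ligation step of the assay, stood at 111% and 172% of the positive control POS_A in the RIPC+LAD samples. It stood at 35.9%, 54.4% and 24.3% in LAD, at 46.7%, 38.9% and 85.6% in AMC, and at 79.2% and 38.4% in RIPC. POS_A itself split the samples into a high set (the 3 AMC samples, RIPC 2 and LAD 1) and a low set (the other 5).

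MiR-411 followed the ligation control closely. Ordered by that control from lowest to highest, the 10 samples had miR-411 at 3623, 3513, 3399, 3096, 2885, 2643, 2416, 2372, 2307 and 1855 CPM, an unbroken descent across all 4 groups. Spearman's rho was -1.0 and Pearson's r -0.98 on the log scale over 10 samples (two-sided permutation test, p = 1e-05 for each, the smallest that 100000 permutations can give; adjusted p = 0.00044 over 44 relations, namely 22 members with the ligation control and with the total count). Pearson's r was -0.96 without the 2 RIPC+LAD samples, which lie farthest from the median, and rho was -1.0 within each of the 2 POS_A sets (n = 5 each).

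Once this control entered the fit as a covariate, the RIPC+LAD over LAD difference of miR-411 was 0.14 ± 0.46, smaller than its SE. Without the covariate it was -0.65 ± 0.30. Both RIPC+LAD samples had a higher control than any other sample, so group and control cannot be told apart in this comparison. The cause of the miR-411 difference was not tested. Among all 141 microRNAs above background in every sample, miR-411 had the highest absolute r with this control, and 8 of them exceeded 0.9, of which miR-411 was the one cluster member. MiR-154 was next among the members, with r = 0.80 and rho = 0.84 (permutation p = 0.00636 and 0.0039, adjusted p = 0.138 and 0.0858), and its difference became -0.29 ± 0.62 with the covariate. The median absolute r was 0.38 for the 22 members and 0.43 for all 141.

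**Figure D4:**
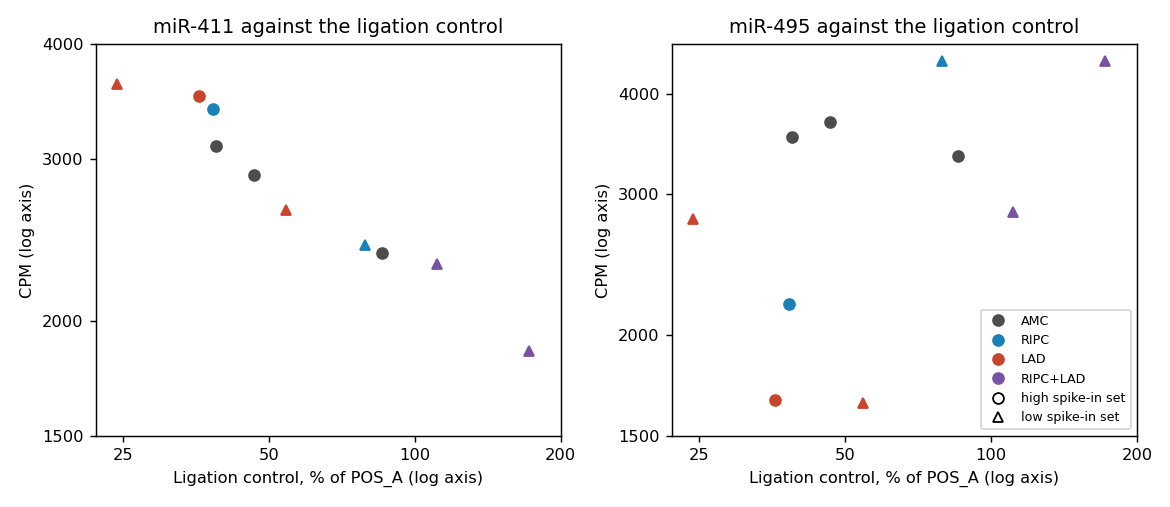
CPM of miR-411 (left) and miR-495 (right) on a log y axis against the ligation control in percent of POS_A (log x axis), 1 point per sample, coloured by group and shaped by POS_A set. MiR-411 falls without a break from 3623 to 1855 CPM, while miR-495 shows no such order, with 1661 CPM in LAD 1 and 4390 CPM in RIPC+LAD 2.

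The effect of preconditioning alone was read from RIPC over AMC, with 2 animals against 3. The 4 members with the smallest p in each direction were miR-487b (0.37 ± 0.33), miR-376b-3p (0.33 ± 0.34), miR-369-5p (0.31 ± 0.34) and miR-410 (0.29 ± 0.32) on the higher side, and miR-381 (-1.07 ± 0.53), miR-376a (-0.60 ± 0.55), miR-758 (-0.43 ± 0.44) and miR-134 (-0.35 ± 0.37) on the lower side. MiR-381 had 10, 13 and 6 counts in AMC and 4 in each RIPC sample. It was above background in AMC 1 and AMC 2 and in no other sample, so it was tested only because it was high in AMC, and its lower value against AMC here and in RIPC+LAD carries no weight. MiR-376a belongs to a group whose transcripts are edited from adenosine to inosine within the seed in human and mouse brain, and the probe name does not say which form it counts.

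In RIPC over AMC 20 of 29 members were higher (background 45.8%) with a median log2 fold change of 0.09, against -0.03 for all 253, and with the POS_A set as a covariate 14 were higher. None had an adjusted p under 0.05 (background 0.0%) or an unadjusted p under 0.05 (background 1.19%) by the edgeR quasi-likelihood test, and DESeq2 and limma-voom called none after adjustment. MiR-495 was at 4394 CPM in RIPC 1 and 2187 CPM in RIPC 2, so its 2 RIPC samples lay above and below all AMC samples.

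Ligation within preconditioned animals, RIPC+LAD over RIPC, gave miR-541 (0.68 ± 0.44), miR-758 (0.58 ± 0.48), miR-539 (0.49 ± 0.41) and miR-154 (0.51 ± 0.45) on the higher side. On the lower side were miR-300-3p (-0.60 ± 0.33), miR-411 (-0.48 ± 0.33), miR-369-3p (-0.51 ± 0.41) and miR-410 (-0.30 ± 0.36). Of the 29 members 18 were higher (background 52.6%). The edgeR quasi-likelihood test gave none with an adjusted p under 0.05 (background 0.0%) and none with an unadjusted p under 0.05 (background 6.72%), and DESeq2 and limma-voom called none after adjustment. The median was 0.27, against 0.07 for all 253, and -0.21 without RIPC+LAD 2. Leaving out that sample moved the median of all microRNAs by -0.08, and the members' median relative to this shift was -0.13.

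Compared with AMC, RIPC+LAD had miR-369-5p (0.64 ± 0.33), miR-379 (0.66 ± 0.35), miR-668 (0.86 ± 0.55) and miR-329 (0.47 ± 0.30) on the higher side. MiR-300-3p (-0.51 ± 0.30), miR-411 (-0.42 ± 0.30), miR-381 (-0.67 ± 0.51) and miR-369-3p (-0.35 ± 0.37) were on the lower side. MiR-668 was above background in 1 sample of each group but AMC, so its higher value against AMC, here and in LAD, is likewise bound to the filter. There were 18 of 29 members higher (background 47.4%), but 8 of 29 without RIPC+LAD 2, where the median was -0.09. Leaving out that sample also moved the median of all microRNAs by -0.09, which the count of 8 does not allow for. The members' median relative to this shift was -5.6e-05, level with all microRNAs. Without the TMM factor 14 were higher and with TMM factors computed without the members 21, while the median relative to all microRNAs was 0.10 under both, as in the main setting. None had an adjusted p (background 0.0%) or an unadjusted p (background 8.70%) under 0.05 by the edgeR quasi-likelihood test, and none passed after adjustment by DESeq2 or limma-voom. These comparisons share samples with those above and are not separate evidence.

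The interaction asks whether the ligation difference changes with preconditioning. MiR-758 had the largest value, 1.61 ± 0.66 on the log2 scale, with an unadjusted p of 0.0259 and an adjusted p of 0.341 by the edgeR quasi-likelihood test. MiR-495 was at 0.95 ± 0.50, miR-539 at 0.90 ± 0.53 and miR-134 at 0.89 ± 0.52, and on the other side miR-411 was at -0.71 ± 0.42, miR-300-3p at -0.49 ± 0.42, miR-377 at -0.58 ± 0.68 and miR-543 at -0.36 ± 0.53. The interaction was above 0 for 23 of 29 members (background 51.8%), 22 with TMM factors computed without the members, 21 with DESeq2, and 15 without RIPC+LAD 2. It was above 0 for 14 both without the TMM factor and with scaling to the 100 most abundant microRNAs, which moved the median of all microRNAs by -0.22 and -0.27. Relative to these shifts the median of the members was 0.21 under both, against 0.19 in the main setting. Leaving out RIPC+LAD 2 moved the median of all microRNAs by -0.10, and the members' median relative to this was 0.19. Limma on the authors' log2 values held 21 members and gave a relative median of 0.05. At an adjusted p under 0.05 there was none (background 0.0%), and at an unadjusted p there was 1 member (background 12.3%), with 0 members passing after adjustment by DESeq2 and limma-voom.

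Members of 1 transcript need not keep a fixed ratio, and their patterns across the 10 samples were set side by side for the 22 members above background in all of them. Over the 231 pairs the median Pearson r of log2 CPM was 0.10, from -0.81 (miR-154 with miR-411) to 0.92 (miR-323 with miR-539). Over all 9870 pairs of 141 microRNAs the median was 0.03, and between members and microRNAs outside the Dlk1-Dio3 domain it was 0.01. A correlation above 0.7 was found in 6.06% of member pairs and in 5.25% of all pairs. The samples share groups and technical conditions, so these values are descriptions.

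The member pairs described next are among the most alike of the 231. Pairs above 0.7 were about as frequent among members (6.06%) as among all microRNAs (5.25%), so they do not set the cluster apart. MiR-495 was most like miR-539 (r = 0.91), and miR-134 (0.81), miR-323 (0.79) and miR-485 (0.77) were also among its 8 closest microRNAs, beside miR-342-3p (0.85), let-7e (0.82), let-7c (0.79) and miR-125a-3p (0.75) from outside the cluster. MiR-134 and miR-539 had r = 0.90. MiR-134 stood at 1350, 2006 and 1910 CPM in AMC, 1675 and 1076 CPM in RIPC, 781, 1126 and 1829 CPM in LAD, and 1560 and 1959 CPM in RIPC+LAD. Like miR-495 and miR-539 it was low in LAD 1 and LAD 2, low in RIPC 2 and high in RIPC+LAD 2. MiR-487b correlated with miR-376b-3p (0.82) and miR-667 (0.78). These 3 were the members with the highest Pearson's r with the total count of the sample, 0.85, 0.70 and 0.71, which became -0.30, 0.10 and -0.11 without LAD 2 and LAD 3, the shallowest samples. None of these relations passed adjustment over the 44 (permutation test, adjusted p = 0.138, 0.156 and 0.377), and the part of depth in this likeness was not tested.

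Position along the cluster did not set these likenesses apart. Hairpins next in order among those of the 22 members, with 1 probe per hairpin, had a median r of 0.08 over 19 pairs. Hairpins without such a member were skipped. The other 212 pairs, which include second arms of neighbours and arms of 1 hairpin, had a median of 0.10. Hairpins starting under 5 kb apart had a median of 0.11. The 3 hairpins with both arms detected gave r = 0.30 for miR-300-3p and miR-300-5p, -0.06 for miR-369-3p and miR-369-5p, and 0.26 for miR-376b-3p and miR-376b-5p. The CPM ratio of the 3p to the 5p probe varied from 14.7 to 68.7 for miR-300, from 5.27 to 20.6 for miR-369 and from 1.34 to 3.26 for miR-376b. MiR-300-5p had 3 to 12 counts and was above background in 3 of 10 samples, so its r and ratio rest on counts near background. Of the members that can share a seed, depending on the arm a probe counts, miR-376b-5p ranged from 921 to 1528 CPM and miR-376c from 671 to 1187 CPM, miR-410 from 470 to 975 CPM and miR-496 from 129 to 369 CPM, while miR-494 was not detected. MiR-381 (45.3 to 132 CPM) and miR-539 (2232 to 6787 CPM) share theirs only if the probes count the 3p arms.

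**Figure D5:**
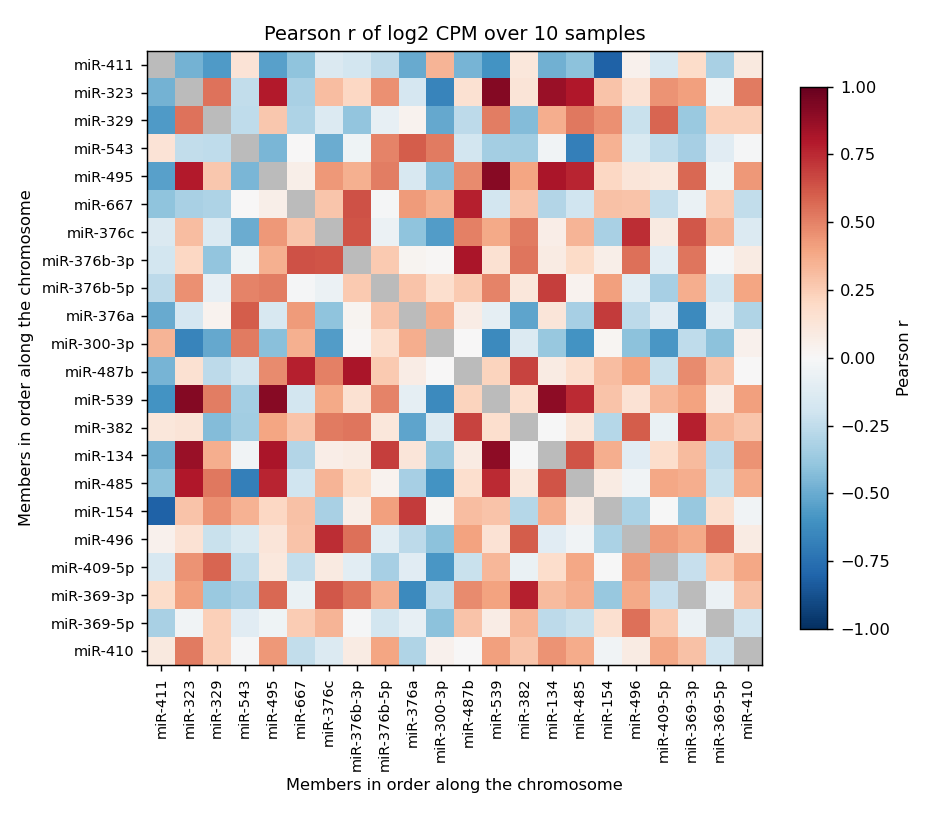
Pearson r of log2 CPM over 10 samples for each pair of the 22 members above background in every sample, both axes in order along the chromosome, red for positive and blue for negative r. The values run from -0.81 to 0.92 without blocks along the diagonal.

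The rest of the Dlk1-Dio3 domain was measured by 17 further probes, of which 10 were detected. In LAD over AMC 4 of the 10 were higher, with a median of -0.18, and in RIPC+LAD over LAD 6 were higher, with a median of 0.31. Their share of microRNA counts was 2.49% ± 0.534 in LAD (SD, n = 3) and 2.93% ± 0.336 in AMC (SD, n = 3), and 3.16% and 4.42% in the RIPC+LAD samples. The median r between members and these microRNAs was 0.18 over 132 pairs.

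Marker microRNAs of cell types also differed between the samples. Summed levels are given here without the TMM factor. The 10 neuronal microRNAs were all detected, with sums of 114195 to 147650 CPM in AMC, 118698 to 152716 CPM in RIPC, 111603 to 152636 CPM in LAD and 122193 to 132819 CPM in RIPC+LAD. In LAD over AMC 9 of the 10 were lower (median -0.28), and in RIPC+LAD over LAD 7 were higher (median 0.50). Of 7 choroid plexus and ciliated cell microRNAs 6 were detected, with sums of 18216 to 59143 CPM in AMC, 21286 to 187220 CPM in LAD (the highest in LAD 1), 25623 to 100249 CPM in RIPC and 18575 to 20621 CPM in RIPC+LAD. All 6 were higher in LAD over AMC (median 0.81) and all 6 lower in RIPC+LAD over LAD (median -1.58). The sums in LAD 2 and LAD 3, 21286 and 23346 CPM, lay within the AMC range, so only LAD 1 had a sum above it. The oligodendrocyte microRNAs, 3 of 4 detected, summed to 20011 to 51454 CPM in LAD (the highest in LAD 2) and 9834 to 17659 CPM in RIPC+LAD. The sums in AMC, 14209 to 36402 CPM, and in RIPC, 12621 to 30985 CPM, overlapped with both. All 3 were lower in RIPC+LAD over LAD (median -1.05). Of 6 microRNAs of the Hox clusters, which mark hindbrain and spinal cord within the central nervous system, 3 were detected and summed to between 3063 and 6753 CPM in every sample. Immune, vascular and erythrocyte microRNAs were detected for 6 of 7, 3 of 3 and 2 of 2 probes, and in RIPC+LAD over LAD their medians were -0.19, 0.04 and -0.90. The part of these cell types in the values of the cluster was not tested.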

How the data were processed

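MicroRNAs were counted with the NanoString nCounter rat panel. The authors deposited raw counts per probe, the lowest being 1, and a table of 146 microRNAs on a log2 scale, which equals the log2 of counts per 100000 microRNA counts. The sources used here do not name the software that made the counts. Detected microRNAs were tested with the edgeR 4.0.16 quasi-likelihood test in R 4.3.3, all 10 samples in 1 fit, with TMM scaling and Benjamini-Hochberg adjustment over 253 microRNAs and 6 contrasts tested separately. The deposited log2 values (limma 3.58.1), DESeq2 1.42.0, other scalings, filters and covariates, and each sample left out were alternatives. The fit was also run on counts simulated from its own model with planted changes, where only their sign was held to a limit. No technical or prefix effect was simulated, so that check does not bear on them. Replicates are single animals. Members and lists were chosen with earlier results of these data known. Per-sample values are given for miR-495, the 8 most abundant members and members with an unadjusted p under 0.05 in a contrast, and the 4 members with the smallest p per direction are named. The sequences are from RefSeq (GRCr8), in which 8 of 36 probes matched a mature name exactly.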

Additional observations from a re-analysis of the deposited data

Results flagged for a closer look

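MiR-409-3p was left out of the comparisons because it was above background in 1 sample only. It had 8 counts in RIPC+LAD 2, above the threshold of 4.75 of that sample, and 1 to 6 counts in the other 9 samples, where it was not above background.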

How the results depend on the processing

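No member passed an adjusted p of 0.05 in any contrast under any alternative. Of 568 values under alternatives for 29 results, 510 were labelled as staying and 58 as moved, and no test crossed its threshold. A test stayed if it kept its side of the threshold, and a count of members if it was within a fixed factor. A median fold change or a share stayed if it was within the replicate SD, so a median could change sign and still stay. The median r stayed if it was within the SD of r over the 231 member pairs, which is wide and is no replicate spread. The median of the members ranged from -0.09 to 0.19 for RIPC over AMC and from -0.11 to 0.33 for RIPC+LAD over AMC, so its sign is not settled there. The median of the members for RIPC+LAD over LAD ranged from 0.0122 to 0.39 when 1 sample was left out (the lowest without RIPC+LAD 2), and for RIPC+LAD over RIPC from -0.21 to 0.32. For the latter it was -0.15 with limma on the authors' log2 values, 0.0054 with the ligation control as a covariate and -0.0477 within a POS_A set, an alternative chosen after seeing the data. The median of the interaction was -0.11 with limma on the authors' log2 values. That limma fit held 21 of the 29 members. Relative to its shift of all microRNAs the median was 0.03 for RIPC+LAD over RIPC and 0.05 for the interaction. The other medians in this paragraph are not set relative to such a shift. Without the 3 most abundant microRNAs of each sample in the total, the cluster share was 5.90% in AMC, 6.68% in RIPC, 5.49% in LAD and 5.87% in RIPC+LAD. The causes were not tested. The counts of members at an unadjusted p under 0.05 ranged from 0 to 3 for LAD over AMC and from 0 to 8 for RIPC+LAD over LAD. Over the same alternatives, the counts among all microRNAs tested ranged from 4 to 21 and from 15 to 64. The background thus moved with the setting too, and these member counts alone do not set the cluster apart. No paired analysis was possible because the labels give no replicate numbers shared between groups. When animals of 1 prefix were treated as a random block, no member passed in any contrast. The correlation estimated within a prefix was negative (-0.23) and each prefix lies within 1 group, so this fit could not allow for likeness within a prefix. Groups of 2 and 3 animals, and counts under 20 for members such as miR-758, limit the precision.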
